A study of Mus musculus with 12 samples.

Results

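Circular RNAs (circRNAs) that were low in mouse blood both 5 min and 24 h after occlusion of the middle cerebral artery are described here. They were chosen by their measured values. A circRNA probe was taken when its spot was well above background on all 12 arrays and its mean log2 intensity lay at least 1.5 units below the SHAM mean at 5 min and again at 24 h. Of 14236 circRNA probes, 8844 were well above background on all 12 arrays, and 106 of these met both limits, which is 0.745% of all circRNA probes. The 5-min and 24-h differences from SHAM therefore describe how the members were picked and carry no test here. Whole blood came by cardiac puncture from male Balb/c mice, which the labels give as 8 weeks old while the methods give an older age. Each of the 4 groups had 3 samples: sham-operated mice taken at 0 h (SHAM), and mice with middle cerebral artery occlusion (MCAO) by an intraluminal silicon-coated filament, bled after 5 min, 3 h or 24 h. The study asked whether circRNAs of blood could serve to diagnose acute ischemic stroke. The occlusion was made under isoflurane anesthesia, and RNA of all 12 samples was digested with RNase R before labelling. The study calls the samples of a group biological replicates without saying whether each was a single mouse, and the p-values measure only the spread between these samples.

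A circRNA forms when a downstream splice donor of a pre-mRNA is joined back to an upstream acceptor, which leaves a closed loop without free ends. Because of that loop it resists RNase R, an exonuclease that removes linear RNA, and each probe of the array reads a back-splice junction. A circRNA is named after the gene that hosts it, but its level need not follow the mRNA of that gene. Blood circRNAs come largely from blood cells, and platelets and red cells, which no longer transcribe a nuclear genome, are known to be rich in them. The circRNA values below are log2 intensities of 1 probe each, so levels were compared between samples and never between probes.

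Before normalization, the median signal of the 106 members was 1569 to 1997 on the SHAM arrays, 166 to 217 at 5 min, 849 to 1480 at 3 h and 387 to 763 at 24 h. The median over all circRNA probes was 83.0 to 113 on the SHAM arrays and 50 to 69 at 5 min, so the 5-min arrays were also the dimmest as a whole. Quantile normalization brought the 10678 probes of the test to medians between 6.97 and 7.12 on every array. Slide was inferred from the scan identifier in the header of each array, and arrays that share an identifier are called a slide here. By it, the 8 arrays of SHAM, 5 min and the first 2 replicates of 3 h lay on slide 1. The other, 3 h replicate 3, lay on slide 2 with the 3 arrays of 24 h. The median negative control spot read 25 to 27 on slide 1 and 83.5 to 101 on slide 2. SHAM and 24 h shared no slide. Within slide 1 the median member lay at a log2 difference of -1.21 at 3 h from SHAM, and within slide 2 at -1.04 at 24 h from the single 3-h array there.

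Several arrays lay between the others of their own group. In 103 of the 106 members (97.2%) the value of SHAM replicate 2 fell between those of SHAM replicates 1 and 3, and over all 10678 tested probes it did so in 83.0%. Where SHAM replicates 1 and 3 differed by at least 1 log2 unit, replicate 2 sat at a median of 0.669 of the linear distance from replicate 1 to replicate 3 over 2363 tested probes, with 5th and 95th percentiles of 0.531 and 0.797. The same held for 5 min replicate 3, which was the middle array in 88.7% of members and 76.5% of tested probes and sat at a median of 0.698 of the distance from replicate 1 to replicate 2 over 2149 probes. At 24 h replicate 2 was the middle array in 78.3% of members, with a wider range of positions (0.291 to 1.07 over tested probes). No 3-h array was the middle one in more than 38.7% of members. Whether these arrays were independent of the others of their group was not tested, and if they were not, groups of 3 overstate the replication and the p-values are too small. Results are therefore given with and without SHAM replicate 2 and 5 min replicate 3, an alternative chosen after the data were seen. With both left out, 95 probes met the rule, of which 90 were among the 106.

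**Figure D1:**
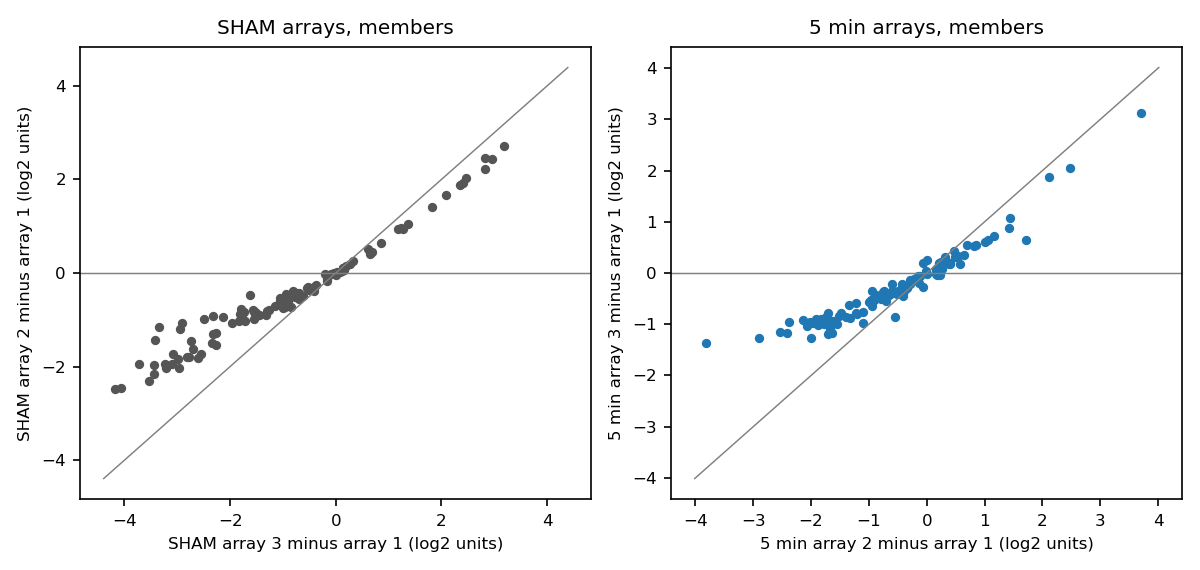
Differences between arrays of 1 group for the 106 members, in log2 units, with SHAM on the left and 5 min on the right. Each point is 1 member, the horizontal axis is the difference between the outer arrays, the vertical axis that of the middle array from the same starting array, and the diagonal marks equal differences. Nearly all points lie between the diagonal and the zero line, in 103 of 106 members for SHAM and in 88.7% for 5 min.

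At 5 min the median member lay at a log2 difference of -2.11 from SHAM and the lowest at -4.07, and at 24 h the median was -2.03 and the lowest -6.57. The median of all tested probes was 0.10 at 5 min and -0.18 at 24 h. The limits cut through a continuous range of values. Just inside the 5-min limit lay mmu_circRNA_35996 of Vav3 at -1.52, the unnamed probe ASCRP4001478 at -1.52 and mmu_circRNA_015316 of Dgkh at -1.53. Just outside it lay the unnamed probes ASCRP4008731 and ASCRP4013470 at -1.49 and -1.46 and mmu_circRNA_36100 of Pde5a at -1.46. At 24 h the innermost members were the unnamed probes ASCRP4006524, ASCRP4012385 and ASCRP4011215 at -1.51, -1.51 and -1.52, and the nearest probes outside were ASCRP4012055 at -1.497, mmu_circRNA_29619 of Adcy5 at -1.49 and ASCRP4002301 at -1.49. A further 23 probes met both differences but were not well above background on every array.

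The members were not uniformly low at 3 h, so that "low from 5 min to 24 h" held for part of them. At 3 h 28 members still lay at least 1.5 log2 units below SHAM, 58 lay between -1.5 and -0.5, 18 lay within 0.5 of SHAM and 2 lay at least 0.5 above it. The median 3-h difference was -1.21, and 102 members had a higher mean at 3 h than at both 5 min and 24 h. The 24-h mean was below the 5-min mean in 56 members and above it in the other 50. The rule asked for low values at 5 min and 24 h but not at 3 h, and for values low against these SHAM arrays. The choice of members therefore favours 3-h means above those of 5 min and 24 h and below that of SHAM, and no p-values are given for single members in those comparisons.

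**Figure D2:**
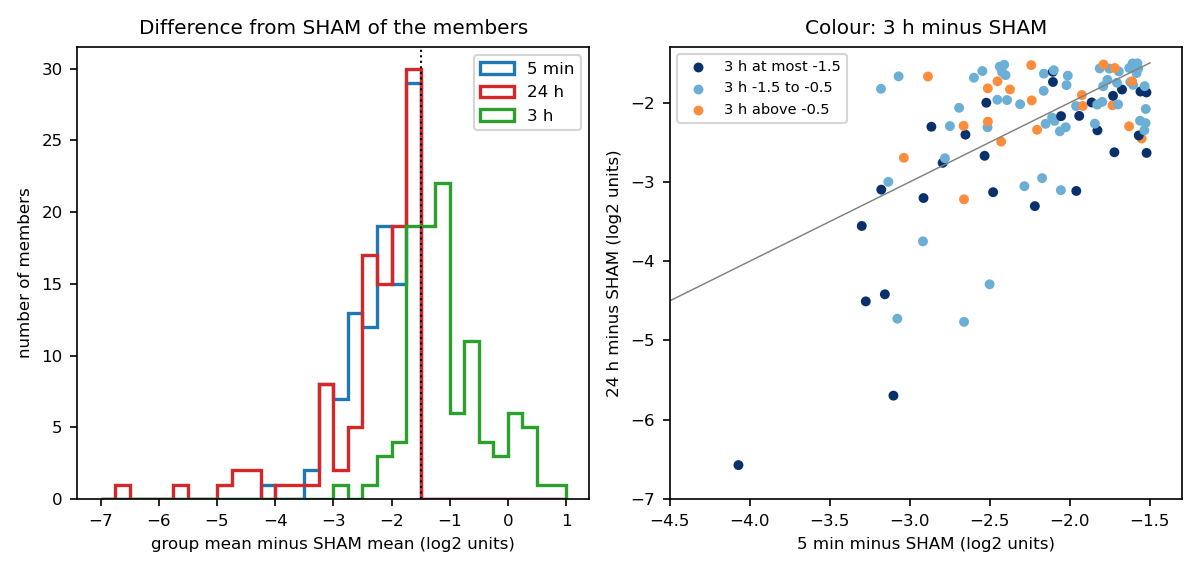
Left, the number of members by their log2 difference from SHAM in each MCAO group, with the limit of -1.5 dotted. Right, each member by its 5-min (horizontal) and 24-h (vertical) difference, coloured by its 3-h difference, with a line of equal differences. The 5-min and 24-h values end at the limit by the rule, whereas the 3-h values spread from -2.83 to 0.79.

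The spread among SHAM arrays was wide for these circRNAs. The median SD of a member over the 3 SHAM arrays was 0.72 log2 units against 0.28 over the tested probes, and it was 0.42 at 5 min, 0.48 at 3 h and 0.59 at 24 h. In 37 members (34.9%) the SHAM SD exceeded 1, as it did in 4.01% of tested probes. SHAM replicate 1 was at least 1 log2 unit above replicate 3 in 52 members and at least 1 unit below it in 13. All 3 arrays at 5 min lay below all 3 SHAM arrays in 90 members, against 16% of the tested probes, and at 24 h in 84 members, against 24.9%. At 3 h 47 members showed no overlap with SHAM, against 17.2% of tested probes. Since the rule picked members for low 5-min and 24-h values against these same SHAM arrays, nothing is read from those counts.

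**Figure D3:**
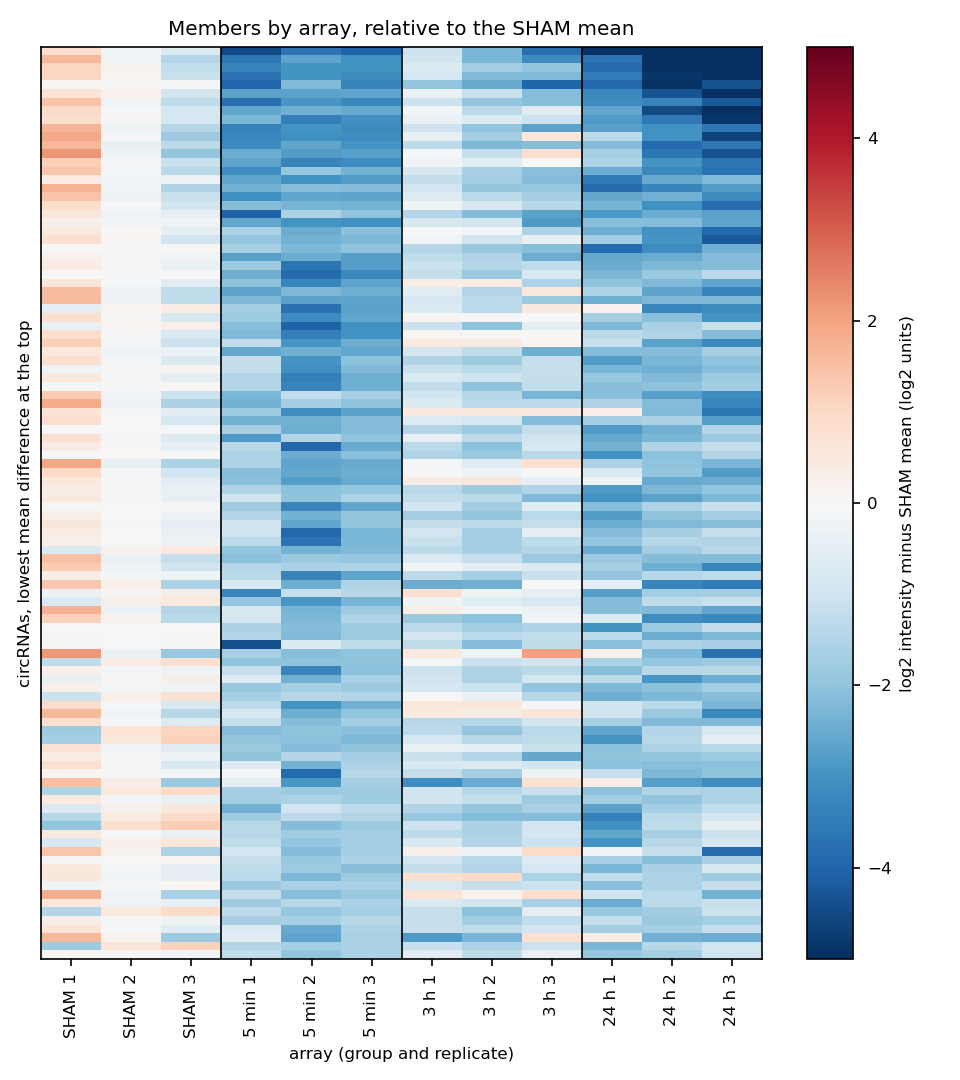
The 106 members (rows) on the 12 arrays (columns), as log2 intensity minus the SHAM mean of the same member, ordered by the mean of the 5-min and 24-h differences. Blue is below and red above the SHAM mean, and values below -5 share the darkest blue. SHAM replicate 1 is red and replicate 3 blue in most rows, and the 3-h mean is above the 5-min and 24-h means in 102 rows.

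In the limma fit over 10678 probes, 67 members were lower than SHAM at 5 min at an adjusted p of 0.05 or below (3.55% of tested probes) and 91 were lower at 24 h (17.7%). These are the contrasts of the rule and nothing is read from the counts. With a log2 difference of at least 2 as well, 55 members were lower at 24 h (3.06%), 1 at 3 h (0.0656%) and 3 at 24 h against 5 min (3.36%). The 5-min count was 0 of 106 without SHAM replicate 2, without 5 min replicate 3 and without both, although 96, 95 and 89 members had an unadjusted limma p under 0.05 in those fits, and it was 42 without 5 min replicate 2. Without SHAM replicate 1 the rule itself picked 200 probes, 70 of them among the 106. At 24 h 62 members remained called with both arrays left out, all among the 91. That fit kept 24 h replicate 2, the middle array in 78.3% of members. The 24-h count was 78 without 24 h replicate 2 alone, and leaving it out together with both others was not tested. With slide as a term in the fit the 24-h count was 8, since SHAM and 24 h are then linked only through the 3-h arrays, while the median member's 24-h difference was -2.04.

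A name could be attached to 73 of the 106 members, through the study's own list of differentially expressed circRNAs, by equal mean intensity and equal log2 differences. That list was itself selected on these samples, so the named members are not a random part of the 106. The other 33 are known only by their probe. The named members came from 64 host genes, and 1, mmu_circRNA_009370 on chromosome 17, had no single gene at its place.

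The lowest member was mmu_circRNA_41878, an exonic circRNA of Ankrd42, which encodes an ankyrin repeat protein, at chr7:92584465-92631662 (mm10, minus strand). It measured 14.58, 13.59 and 13.03 in the SHAM samples, 9.21, 10.02 and 9.74 in those at 5 min, 12.67, 11.46 and 9.93 in those at 3 h and 8.39, 7.28 and 5.81 in those at 24 h. Every MCAO value was below every SHAM value, and the 24-h values were below all others. The difference was 16.8-fold at 5 min and 95.1-fold at 24 h. At 24 h it was also lower than at 3 h, with a log2 difference of -4.19 ± 0.71 (SE), and lower than at 5 min (-2.50 ± 0.71, adjusted p = 0.0184).

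The circRNA of Crim1, a transmembrane protein that binds bone morphogenetic proteins, was mmu_circRNA_015506 (chr17:78313123-78315746). Its SHAM samples read 13.98, 12.26 and 10.90, those at 5 min 8.74, 9.74 and 9.34, those at 3 h 11.44, 10.10 and 9.27 and those at 24 h 8.70, 6.10 and 5.25. The 3 SHAM samples spanned 3.09 log2 units, and at 3 h the highest sample overlapped them. It was 8.59-fold lower than SHAM at 5 min and 51.8-fold lower at 24 h.

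The circRNA of Cep350, a large centrosomal protein, was mmu_circRNA_003795, listed as sense overlapping (chr1:155847109-155848727). It read 14.99, 14.05 and 12.86 across the SHAM samples, 10.28, 10.97 and 10.83 across the 5-min samples, 13.10, 11.77 and 11.75 across the 3-h samples and 10.46, 9.11 and 8.81 across the 24-h samples. Its means were ordered from SHAM through 3 h and 5 min to 24 h, the 5-min and 24-h samples overlapped, and 1 of the 3-h samples lay within the SHAM range.

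Phka2 encodes a regulatory subunit of phosphorylase kinase, the enzyme that switches on glycogen breakdown, and hosted mmu_circRNA_45921 (chrX:160523271-160533077), which was the only named member on the X chromosome. Its SHAM samples were close together at 15.11, 14.95 and 14.95. The 5-min samples read 11.05, 12.78 and 11.71, the 3-h samples 13.04, 12.50 and 10.99 and the 24-h samples 11.06, 10.06 and 10.64. All 9 MCAO samples lay below the SHAM samples, and the MCAO groups overlapped each other in part. At 3 h it was 7.09-fold lower than SHAM (-2.83 ± 0.52), which was the lowest 3-h difference of all members.

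The intronic circRNA mmu_circRNA_012978 of Tsc2, whose protein tuberin restrains the growth kinase mTORC1, spanned 195 bp (chr17:24624819-24625014). It read 15.94, 14.93 and 14.12 in the SHAM samples, 12.41, 12.58 and 12.48 in those at 5 min, 14.86, 13.69 and 14.42 in those at 3 h and 12.38, 10.49 and 9.23 in those at 24 h. The 5-min and 24-h samples stood clear of SHAM, and the 3-h samples lay within its range or just under it. Its 24-h level was below that at 3 h, with a log2 difference of -3.62 ± 0.65.

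Tmcc1, a membrane protein of the endoplasmic reticulum, hosted mmu_circRNA_40795, with 15.28, 14.81 and 13.66 across the SHAM samples, 11.91, 11.90 and 11.95 across the 5-min samples, 14.28, 13.48 and 12.41 across the 3-h samples and 11.34, 10.27 and 7.84 across the 24-h samples. Its 5-min samples agreed within 0.05, whereas its 24-h samples spread over 3.51 log2 units and all lay below them. Camk1d, a calcium/calmodulin-dependent kinase, hosted mmu_circRNA_32884, with 14.36, 13.53 and 12.62 in the SHAM samples, 11.21, 10.10 and 10.45 in those at 5 min, 13.19, 12.87 and 12.43 in those at 3 h and 10.69, 9.95 and 8.63 in those at 24 h. Its 3-h samples overlapped SHAM, and 24 h was lower than 3 h, with a log2 difference of -3.08 ± 0.54.

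The circRNA of Sppl2a, an intramembrane protease, was mmu_circRNA_34491. It read 12.84, 11.21 and 10.13 across the SHAM samples, 7.63, 8.48 and 8.17 across the 5-min samples, 10.34, 9.44 and 9.28 across the 3-h samples and 8.25, 8.07 and 7.18 across the 24-h samples. The 5-min and 24-h samples overlapped each other and were clear of SHAM. Zpbp, a protein of the sperm acrosome that binds the egg coat, hosted mmu_circRNA_22898, with 12.12, 10.17 and 9.02 in the SHAM samples, 7.06, 7.46 and 7.24 in those at 5 min, 9.42, 8.46 and 7.76 in those at 3 h and 7.74, 7.40 and 6.87 in those at 24 h. One 3-h sample lay within the SHAM range, and the 5-min and 24-h means differed by a log2 value of 0.08, far less than its SE of 0.63.

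Hif1a, the oxygen-regulated subunit of hypoxia-inducible factor, hosted mmu_circRNA_25329 (chr12:73926556-73937800). Its SHAM samples read 14.23, 12.28 and 10.51, the 5-min samples 9.08, 9.28 and 9.24, the 3-h samples 11.96, 10.62 and 12.87 and the 24-h samples 11.00, 9.30 and 7.71. The SHAM samples spanned 3.72 log2 units, and the 3-h and 24-h samples overlapped them, so that only the 5-min samples lay clear. Another member, mmu_circRNA_25332 of Snapc1, a subunit of the complex that activates small nuclear RNA genes, lay on the same chromosome at chr12:73967346-73975161, downstream of Hif1a. Copg1, a coat protein of Golgi transport vesicles, hosted mmu_circRNA_40539, with 10.31, 8.27 and 7.35 across the SHAM samples, 5.48, 6.05 and 5.66 across the 5-min samples, 7.35, 6.39 and 6.53 across the 3-h samples and 6.47, 4.77 and 5.08 across the 24-h samples. At 3 h the highest sample equalled the lowest SHAM sample at the printed precision, and the 5-min and 24-h samples lay below SHAM.

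**Figure D4:**
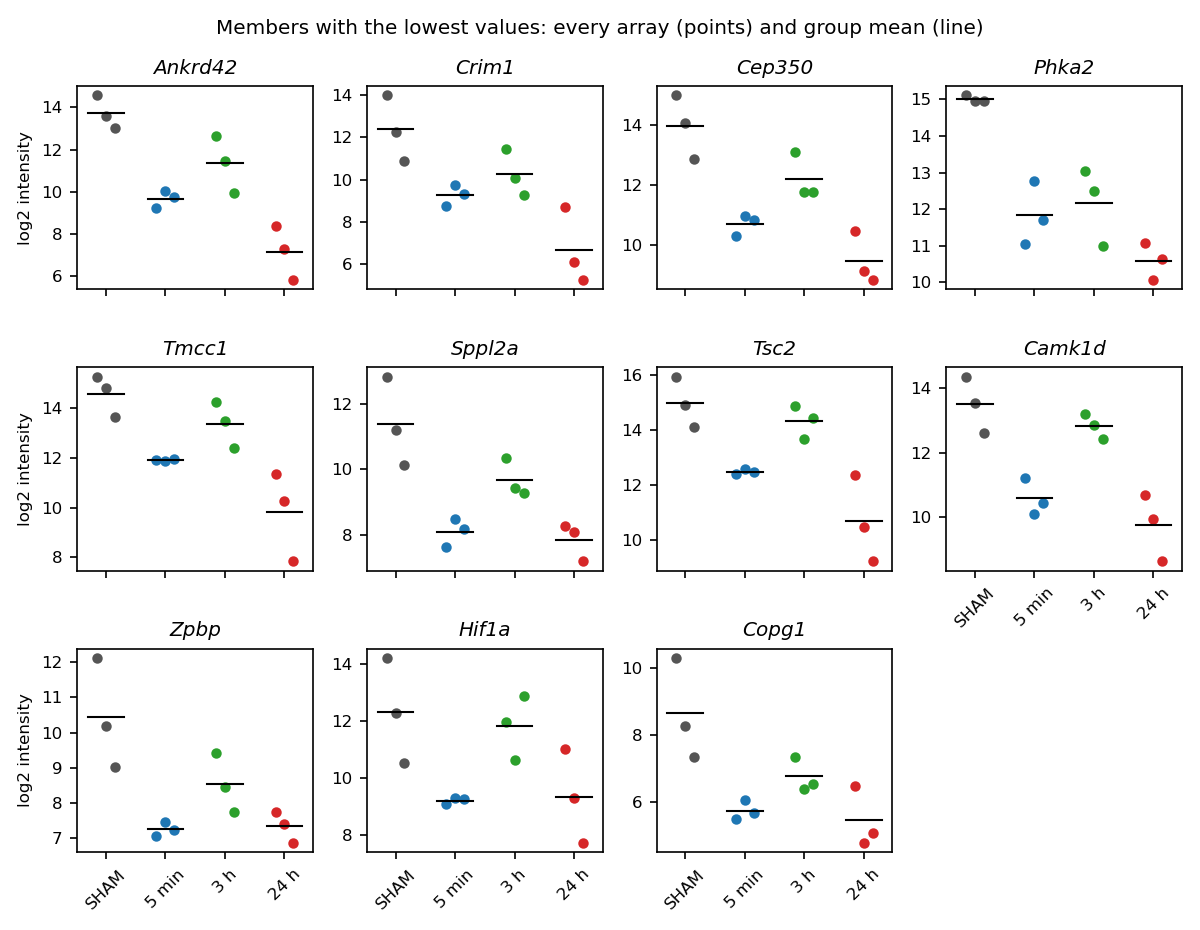
Log2 intensity (vertical axis) of 11 of the 12 members with the lowest mean of the 5-min and 24-h differences, by group (horizontal axis). Points are the 3 samples of a group, in replicate order from left to right, and lines are group means. In every panel the 3-h mean lies between SHAM and the 5-min and 24-h means, and in Ankrd42, Crim1, Tmcc1 and Tsc2 all 24-h samples lie below all 5-min samples.

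Host genes were grouped by function over all named circRNAs, whatever their direction, and the counts of each list include its members, which the rule made low at 5 min and 24 h. Of the 902 named circRNAs that entered the fit, 131 were lower and 27 higher than SHAM at 5 min. At 24 h 353 were lower and 487 higher. Their median difference was 0.41 at 5 min and 2.06 at 24 h. Over all tested probes, 3.55% were lower and 1.71% higher at 5 min, and 17.7% were lower and 14.1% higher at 24 h. Names come from the study's list of differentially expressed circRNAs, so the counts of each list below are read beside those of the 902. Protein kinases and their subunits had 10 members among 46 named circRNAs. Of the 45 in the fit, 14 were lower and 1 was higher at 5 min, and 25 were lower and 17 higher at 24 h. The list's median difference was -0.20 at 5 min and -1.52 at 24 h. Beside Phka2 and Camk1d they included circRNAs of Gsk3b, a kinase of glycogen and Wnt signalling, Erbb3 and Epha5, receptor kinases for neuregulins and ephrins, Tec, a kinase of haematopoietic cells, Phkb, another phosphorylase kinase subunit, and Tnik, a Wnt-linked kinase. At 3 h Gsk3b was lower than SHAM (-1.70 ± 0.39), whereas Erbb3 and Epha5 were near it at 0.02 and 0.18.

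Regulators of small GTPases, the switches of cytoskeleton and vesicle traffic, had 6 members among 41 named circRNAs, all in the fit. Of these 12 were lower and 1 was higher at 5 min, 14 were lower and 23 higher at 24 h, and the median difference at 24 h was 2.08. The members came from Tsc2, Arhgap10, a GTPase-activating protein, Vav3, a nucleotide exchange factor of immune cells, and Ralgps2, an activator of Ral. The circRNA of Ralgps2, mmu_circRNA_015637, was lower than SHAM at 3 h as well (-1.67 ± 0.35).

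Ion channels had 5 members among 34 named circRNAs, of which 7 were lower and 3 higher at 5 min, and 11 were lower and 18 higher at 24 h. Kcnq5, a voltage-gated potassium channel, hosted mmu_circRNA_19729, with 10.92, 9.62 and 8.60 in the SHAM samples, 7.09, 6.38 and 6.55 in those at 5 min, 9.54, 9.14 and 9.71 in those at 3 h and 8.18, 6.77 and 6.11 in those at 24 h. Its 3-h samples lay within the SHAM range, and 3 h was higher than 5 min (2.79 ± 0.57) and higher than 24 h (24 h minus 3 h -2.45 ± 0.57). The circRNA of Cacnb2, a calcium channel subunit, read 13.59, 13.19 and 13.16 across the SHAM samples, 10.73, 10.33 and 10.28 across the 5-min samples, 12.51, 12.40 and 10.47 across the 3-h samples and 11.20, 11.14 and 10.68 across the 24-h samples. Its SHAM samples were within 0.42 of each other, and every MCAO sample lay below them. The channel members also included circRNAs of Ano6, the lipid scramblase that exposes phosphatidylserine on platelets, and P2rx4, an ATP-gated channel, with mean 3-h differences of -1.48 and -0.46.

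Membrane traffic had 3 members among 31 named circRNAs, of which 10 were lower and none higher at 5 min, and 15 were lower and 9 higher at 24 h. Beside Copg1 they came from Lyst, which shapes lysosomes and secretory granules, and Stxbp5, a binder of the fusion protein syntaxin. The Stxbp5 circRNA, mmu_circRNA_013699, was lower than SHAM at 3 h (-1.54 ± 0.32). Chromatin regulators had 3 members among 36, from Kansl1l and, with a pair, Phf21a, a histone reader of a demethylase complex. The Kansl1l circRNA, mmu_circRNA_20290, had 24-h values of 11.16, 10.58 and 9.72 against 3-h values of 13.60, 13.45 and 12.04, without overlap (24 h minus 3 h -2.55 ± 0.48). Cilia and centrosomes had 2 members among 23, from Cep350 and Odf2l, and the ubiquitin and SUMO list had none among 32. Of those 32, 10 were lower and none higher at 5 min, and 13 were lower and 11 higher at 24 h. That list did not hold the member Asb3, whose protein is a ubiquitin ligase adaptor, so its count does not cover every such host.

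Further named members belong to none of these lists, and those described next were picked after their values were seen. The circRNA of Plcg2, a phospholipase of immune receptor signalling, read 11.93, 11.33 and 10.88 in the SHAM samples, 10.38, 8.77 and 9.45 in those at 5 min, 10.18, 10.09 and 10.22 in those at 3 h and 8.89, 9.19 and 9.26 in those at 24 h, with all MCAO samples below SHAM. Those of Adcy9, an adenylyl cyclase, Dgkh, a diacylglycerol kinase, and Akap9, an anchor of protein kinase A, had 24-h differences of -2.63, -2.08 and -3.31 and 3-h differences of -1.58, -0.81 and -1.60. Those of Ric8b, a chaperone of G protein subunits, and Ppp2r3a, a regulatory subunit of protein phosphatase 2A, lay at -3.07 and -2.11 at 5 min and at -1.67 and -2.19 at 24 h.

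The circRNA of Hivep2, a zinc finger transcription factor, read 14.81, 13.93 and 12.99 across the SHAM samples, 11.73, 11.60 and 11.54 across the 5-min samples, 13.69, 13.16 and 12.53 across the 3-h samples and 11.57, 10.88 and 10.11 across the 24-h samples, and only 1 of its 3-h samples lay below the SHAM range. Those of Lmx1a, a homeodomain factor, Hic2, a zinc finger repressor, and Mdc1, a mediator of the DNA damage response, had 3-h differences of -1.22, -1.52 and -1.11. In 13 members SHAM replicate 3, not replicate 1, was the high array by at least 1 log2 unit, and 4 of them had names: Sfpq, a splicing factor, Rhot1, a mitochondrial GTPase, Tec and Asb3. The Rhot1 circRNA, mmu_circRNA_23845, read 8.80, 10.46 and 10.89 in the SHAM samples, 8.03, 8.03 and 8.02 in those at 5 min, 9.99, 8.97 and 9.09 in those at 3 h and 8.47, 8.11 and 8.23 in those at 24 h. Its 5-min samples lay within 0.01 of each other, while its SHAM samples spanned 2.09.

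The 33 members without a name lay nearer to the limits. Their median differences from SHAM were -1.71 at 5 min, -1.18 at 3 h and -1.74 at 24 h, and their 3-h values ran from -2.07 to 0.79. Of the 33, 5 were called lower than SHAM at 3 h. SHAM means ran from 7.29 to 14.63.

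Blood cell markers were few among the named circRNAs, and in bulk blood fewer cells of a type cannot be told apart from less RNA per cell. Of 11 platelet genes 4 hosted named circRNAs (Cd36, F13a1, Pde5a and Ltbp1), 8 in all, and 3 of these were members. All 8 were lower than SHAM at 24 h (17.7% of tested probes and 353 of the 902 named circRNAs). At 5 min 7 were lower (3.55% and 131 of the 902). The summed linear intensity of the 8 was 20530 to 26990 in SHAM, 3167 to 9512 at 5 min, 8500 to 14160 at 3 h and 5278 to 10170 at 24 h. No MCAO sample reached the lowest SHAM sample. The counts and sums include the 3 members, which the rule made low at 5 min and 24 h. Nothing is therefore read from either. The part of these platelet hosts in the values of the members was not tested. The other 7 platelet genes, with Pf4 and Itga2b among them, had no named circRNA. No erythroid, T-cell or monocyte host was among the members. The 2 erythroid circRNAs summed to 2234 to 2905 in SHAM, 3846 to 4458 at 5 min, 1355 to 1859 at 3 h and 220.1 to 781.7 at 24 h. The single T-cell circRNA (Ets1) measured 274.0 to 328.5 in SHAM, 506.3 to 3782 at 5 min, 1009 to 2873 at 3 h and 749.7 to 1048 at 24 h. The 2 monocyte circRNAs (Adgre1) summed to 89.9 to 127.4 in SHAM, 99.3 to 177.5 at 5 min, 189.4 to 294.2 at 3 h and 439.5 to 1473 at 24 h. B-cell and neutrophil lists had no named circRNA. The neuronal list had 1 member among 10 named circRNAs, whose sum was 7315 to 7712 in SHAM, 7785 to 19480 at 5 min, 20390 to 25260 at 3 h and 21320 to 41380 at 24 h. These lists were not tested against the members either.

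A host gene with more than 1 member was seen 7 times. St6galnac3, a sialyltransferase, had 3, which share their start at chr3:153411461, and mmu_circRNA_19311 and mmu_circRNA_010337 differ by 3 bp at the other end, so their junctions are nearly the same. The former read 12.55, 12.53 and 12.46 across the SHAM samples, 10.85, 10.06 and 10.34 across the 5-min samples, 11.05, 10.69 and 11.32 across the 3-h samples and 9.68, 10.10 and 11.06 across the 24-h samples. The latter read 12.76, 12.75 and 12.73, 11.18, 10.25 and 10.65, 11.26, 10.88 and 11.42 and 9.72, 10.71 and 11.29 in the same order, and both were low in all 9 MCAO samples. The longer mmu_circRNA_36337, which ends 97623 bp farther on, had 24-h values of 6.87, 7.58 and 8.30 and was lower at 24 h than at 5 min (-1.15 ± 0.36, adjusted p = 0.0301). All 3 were lower than SHAM at 3 h, with log2 differences of -1.49, -1.56 and -1.82. Their SHAM samples agreed within 0.09.

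Arhgap10 had a pair with a common end. Its mmu_circRNA_003169 read 12.07, 12.10 and 12.09 in the SHAM samples, 9.66, 8.18 and 8.88 in those at 5 min, 10.91, 10.25 and 11.33 in those at 3 h and 9.78, 10.23 and 10.77 in those at 24 h. SHAM was the tightest group, and the 5-min samples lay below all others. It was higher at 24 h than at 5 min by 1.35 ± 0.41 (adjusted p = 0.0252), while mmu_circRNA_015986, which starts 33909 bp farther on, differed between those times by -0.12 ± 0.39 (adjusted p = 0.849). The difference between the pair was not tested.

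The 2 members of Vav3 do not overlap. From SHAM, mmu_circRNA_35991 differed by -2.06 at 5 min, -1.48 at 3 h and -2.36 at 24 h. The other, mmu_circRNA_35996, stood at -1.52 after 5 min, -1.59 after 3 h and -2.64 after 24 h. Pde5a, the cyclic GMP phosphodiesterase, had 2 members that do not overlap, mmu_circRNA_36096 at -2.55, -1.09 and -1.60 and mmu_circRNA_007906 at -2.40, -1.05 and -1.65. Both were lower at 5 min than at 24 h in the mean, as was Ltbp1, which binds latent TGF-beta (-2.60, -1.39 and -1.69). The pairs of Phf21a, Sh3bgrl2, a small SH3-binding protein, and Bend4, a BEN domain protein, had 5-min differences between -2.48 and -2.16 and 24-h differences between -3.13 and -1.55. The Bend4 pair shares a start and the Sh3bgrl2 pair overlaps, so their probes are not independent observations of a host.

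Other circRNAs of the same hosts did not all behave alike. The hosts of members had 15 further named circRNAs, from 12 hosts, of which 12 lay below SHAM in the mean at 5 min and 13 at 24 h. Names come only from the study's list of differentially expressed circRNAs, so circRNAs of these hosts outside that list are not among the 15. Of the 15, 8 were called lower at 5 min (3.55% of tested probes) and 9 at 24 h (17.7%), and 2 were called higher at 24 h (14.1%). One of the 2 was the exonic mmu_circRNA_38874 of Epha5, with 9.42, 9.07 and 8.88 in SHAM and 12.50, 12.46 and 12.04 at 24 h (3.21, adjusted p = 0.000185). The intronic member of the same gene, mmu_circRNA_38889, read 8.33, 7.80 and 7.27 across the SHAM samples, 5.69, 5.06 and 5.29 across the 5-min samples, 8.17, 8.35 and 7.40 across the 3-h samples and 7.59, 5.28 and 5.33 across the 24-h samples. The circRNAs lay on opposite sides of SHAM at 24 h. The other was mmu_circRNA_26317, listed as intergenic at LOC102631805, where RefSeq places Gm272. It read 7.36, 7.12 and 6.87 in SHAM and 11.59, 9.90 and 8.03 at 24 h (2.72, adjusted p = 0.0056), while the member mmu_circRNA_26316 from the same locus (chr13:49820612-49830616) read 11.18, 10.45 and 10.22 in SHAM and 7.76, 8.13 and 7.94 at 24 h. These circRNAs were singled out after their values were seen, and the differences within a host were not tested.

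**Figure D5:**
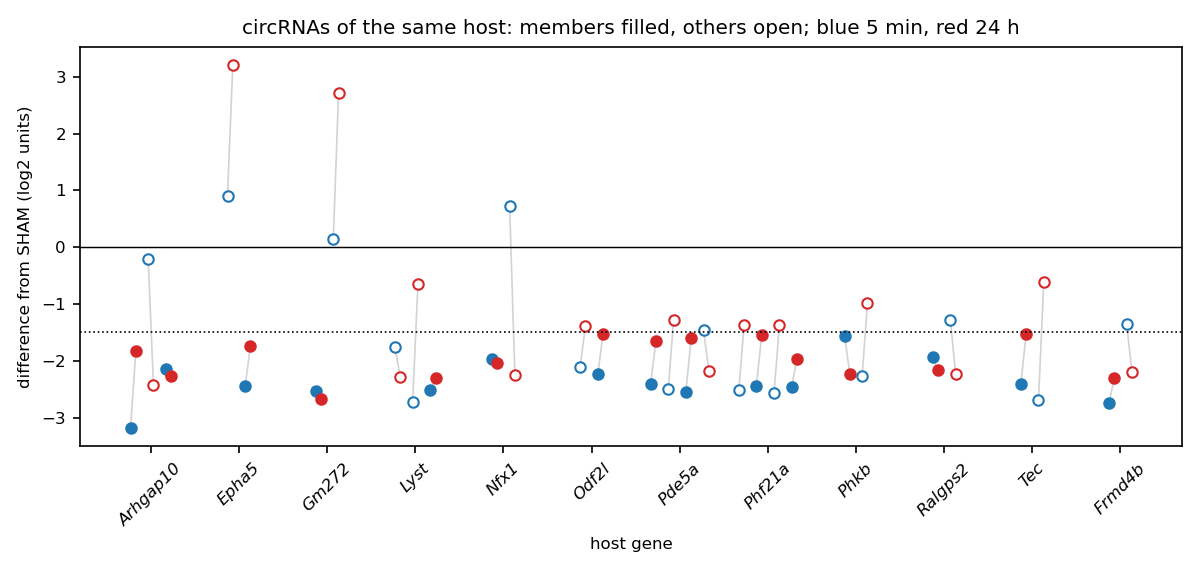
Log2 difference from SHAM (vertical axis) of every named circRNA of the 12 host genes that have both a member and another named circRNA. Filled points are members, open points the other circRNAs, blue is 5 min and red 24 h, joined per circRNA, and the dotted line is the limit of -1.5. The open points of Epha5 and Gm272 reach 3.21 and 2.72 at 24 h, while their members lie below -1.5.

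At 3 h 15 members were lower than SHAM at an adjusted p of 0.05 or below (0.815% of tested probes). The 3-h samples took no part in the choice of members, but the SHAM samples did, so the count is not independent of the rule and nothing is read from it. Of the 15, 10 had names: Phka2, Gsk3b, Ralgps2, Stxbp5, mmu_circRNA_35996 of Vav3, all 3 of St6galnac3, Igsf21, an immunoglobulin-family synaptic protein, and Asb3, a ubiquitin ligase adaptor. Igsf21 averaged 13.19 ± 0.23 (SD) over the SHAM samples and read 10.47, 10.70 and 10.43 in those at 5 min, 11.94, 11.68 and 10.72 in those at 3 h and 10.63, 10.69 and 11.02 in those at 24 h, without overlap between SHAM and any MCAO group (-1.74 ± 0.33 at 3 h). The count was 1 without SHAM replicate 2, 2 without 3 h replicate 2, 8 without 5 min replicate 3 or without 3 h replicate 1, 9 without 3 h replicate 3 or without 24 h replicate 2, and 24 without 24 h replicate 1. It was 0 without both intermediate arrays, where 45 members had an unadjusted p under 0.05.

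Between the MCAO groups, 9 members were higher at 3 h than at 5 min (1.27% of tested probes higher) and none lower (0.805%), a direction that the choice of members for low 5-min values favours. They were the circRNAs of Akap6, an anchor of protein kinase A, Erbb3, Odf2l, Kcnq5, Tec, Epha5, Adam32, a metalloprotease-family protein of the testis, Arhgap10 (mmu_circRNA_003169) and Dpp10, an accessory subunit of potassium channels. They are named here by the call itself, after their values were seen. The Akap6 circRNA, mmu_circRNA_001149, read 11.59, 10.76 and 10.06 across the SHAM samples, 8.58, 7.38 and 7.79 across the 5-min samples, 10.94, 10.86 and 10.77 across the 3-h samples and 9.45, 9.30 and 8.65 across the 24-h samples. Its 3-h samples lay inside the SHAM range and above every 5-min and 24-h sample (3 h minus 5 min 2.94 ± 0.42). The Erbb3 circRNA, mmu_circRNA_22800, had the same order, with 13.39, 12.60 and 11.82 in the SHAM samples, 10.84, 9.44 and 9.99 in those at 5 min, 12.75, 12.53 and 12.59 in those at 3 h and 10.93, 10.51 and 9.65 in those at 24 h. The count of 9 was 0 without both intermediate arrays, where 39 members had an unadjusted p under 0.05. It was also 0 without 5 min replicate 2 or 3 or without 3 h replicate 1 or 2, was 1 without SHAM replicate 2 and 2 without 24 h replicate 2, and was 16 without SHAM replicate 1 or 5 min replicate 1 and 20 without 24 h replicate 1.

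From 3 h to 24 h, 17 members were lower at 24 h (2.21% of tested probes lower) and none higher (2.44%), again the direction that the choice favours. They included the circRNAs of Ankrd42, Crim1, Cep350, Tmcc1, Tsc2, Camk1d, Kansl1l, Kcnq5, Hivep2, Eml2, Adam32, Erbb3, Akap6, P2rx4 and Pdss2. The median difference of the members was -1.02, against -0.05 over all tested probes. Slide and time are largely confounded in this step: with slide as a term 0 were called and 25 had an unadjusted p under 0.05. On slide 2 alone, 98 members had a 24-h mean below the single 3-h array, and in 81 all 3 samples at 24 h lay below it. The count was also 0 without 3 h replicate 1 or 2, without 24 h replicate 2, and without both intermediate arrays, where 47 had an unadjusted p under 0.05. It was 9 without SHAM replicate 2 or 5 min replicate 3, 11 without 24 h replicate 3, 27 without 3 h replicate 3 or 24 h replicate 1, and 28 without SHAM replicate 1.

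Between 5 min and 24 h, 6 members were lower at 24 h, which is a smaller share than the 18.3% of tested probes that were lower, and 2 were higher (11.7% of tested probes). Both groups had been chosen to be low against the same SHAM mean, which limits the difference between them although the rule did not use it directly. Nothing is therefore read from the smaller share, and the p-values given for members in this comparison are a description. The 6 included the circRNAs of Ankrd42, Crim1, Tmcc1, St6galnac3 (mmu_circRNA_36337) and Vav3 (mmu_circRNA_35996), and the 2 were those of Arhgap10 (mmu_circRNA_003169) and Akap6. With slide as a term none of the members was called lower, and 0 had an unadjusted p under 0.05. The lower count was 0 without 5 min replicate 3 and without both intermediate arrays, where 7 had an unadjusted p under 0.05, 1 without 24 h replicate 2, and 2 without SHAM replicate 2, 5 min replicate 1, 5 min replicate 2 or 24 h replicate 3.

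In kind the named members resembled the named circRNAs at large, while the exonic ones spanned less genome in the median. Of the 73, 54 (74.0%) were exonic, 15 (20.5%) sense overlapping, 3 intronic and 1 intergenic, against 73.5% exonic and 15.4% sense overlapping among all 903 named circRNAs. None was antisense. They lay on 18 chromosomes, with the most on chromosome 3 (9) and 7 each on chromosomes 1 and 17. The exonic members spanned a median of 7302 bp of genome between their back-splice ends, from 111 bp for a circRNA of Nudt3 to 98036 bp for mmu_circRNA_36337, and the median of all 664 exonic named circRNAs was 12236 bp. The median 3-h difference from SHAM was -1.21 for members, -0.80 for the 255 probes low at 5 min alone and -0.83 for the 566 low at 24 h alone. These groups were cut from the same values, so no test of these differences was made.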

How the data were processed

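Total RNA of 12 mouse blood samples was digested with RNase R and hybridised by the authors to 1-colour circRNA arrays (Cy3). The deposited scanner files, made with Agilent Feature Extraction 11.0.1.1 per the file headers, hold spot intensities that are not yet normalized, and the deposited series table holds the authors' log2 intensities. The submitters' processing notes name limma without a version. Here, median spot intensities were corrected for background by normexp with an offset of 0, brought to equal quantiles across the 15712 spots of each array and log2-transformed with limma 3.58.1 in R 4.3.3 (statmod 1.5.0 for the random slide term). The 10678 circRNA probes at least 1.1 times as bright as the 95th percentile of 77 negative control spots on all 12 arrays entered 1 limma fit of all 4 groups, whose prior variance followed the mean, and p-values were adjusted by Benjamini-Hochberg within each contrast. A probe was called at an adjusted p of 0.05 or below. The procedure was run on simulated data in which the noise of each array was independent. That setting does not hold arrays lying between others of their group, so it cannot show whether the p-values hold for these samples. The number of arrays, 3 a group, limits the precision. Names were attached to 903 probes from the study's list where mean intensity and log2 differences matched within 5e-04. Positions are those of mm10, and symbols were checked by place in RefSeq (GRCm38.p6), which held 815 of the listed symbols there, gave another for 59 and no single gene for 29. That list's values served only to attach names and to choose some of the circRNAs named, and none is printed. Named individually were the 12 lowest members by mean difference, the study's most changed circRNAs, hosts with several members, the lowest 2 of each host list and the probes next to each limit, and others were picked after their values were seen, while some of these are not reported here. The members and host lists were chosen with earlier results of these data known. Samples with the same replicate number deviated together in every pair between SHAM and 24 h (correlations 0.399, 0.12 and 0.459). They did so more weakly between 5 min and 24 h (0.171, 0.057 and 0.086). Both were seen in the data and are not stated by the labels. Alternatives covered background correction, normalization, the deposited table, probe filters, the fit, slide, replicate number and leaving out arrays.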

Additional observations from a re-analysis of the deposited data

Results flagged for a closer look

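This section covers members named by rule and reported here whose difference from SHAM was not the same at 2 times. That was judged by the limma test of the difference between those times. Other members called in these comparisons are left out, among them Akap6, which was also higher at 24 h than at 5 min. Groups of 3 samples were too small for a check of single outlying samples. All these comparisons use samples that took part in choosing the members.

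From 5 min to 3 h the log2 level was higher by 1.92 ± 0.41 (SE) for mmu_circRNA_003169 of Arhgap10, by 2.58 ± 0.52 for Odf2l and by 2.79 ± 0.57 for Kcnq5. From 3 h to 24 h the differences were -4.19 ± 0.71 for Ankrd42, -3.59 ± 0.88 for Crim1, -2.75 ± 0.57 for Cep350 and -3.57 ± 0.74 for Tmcc1. They were -3.62 ± 0.65 for Tsc2, -3.08 ± 0.54 for Camk1d, -2.55 ± 0.48 for Kansl1l and -2.45 ± 0.57 for Kcnq5. Since members were picked for low values at 5 min and 24 h and not at 3 h, the choice favours these directions. The values are therefore a description and their p-values are not given.

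From 5 min to 24 h the differences were -2.50 ± 0.71 for Ankrd42, -2.59 ± 0.88 for Crim1 and -2.10 ± 0.74 for Tmcc1. They were -1.15 ± 0.36 for mmu_circRNA_36337 of St6galnac3, -1.11 ± 0.37 for mmu_circRNA_35996 of Vav3 and 1.35 ± 0.41 for mmu_circRNA_003169 of Arhgap10, the only one of these 6 with the higher level at 24 h. The limma adjusted p ran from 0.0184 for Ankrd42 to 0.0461 for Tmcc1. Since the rule set a limit for both times against SHAM, these p-values are a description. With slide as a term, or without SHAM replicate 2 and 5 min replicate 3, no member was called lower at 24 h than at 3 h or at 5 min, and the causes were not tested.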

How the results depend on the processing

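Over the 35 circRNAs named by rule, 2488 recomputed log2 differences from SHAM were counted as the same. For differences called in the main fit this meant the same direction and still called. For the others it meant a shift smaller than the within-group SD, whatever the sign, so an uncalled 3-h difference could change sign. The call was lost by 270 and gained by 77, and 0 called differences reversed. All 1890 recomputed differences at 5 min or 24 h stayed below 0, with the highest at -0.32. The rule had picked these circRNAs for low values at both times on the same arrays, so nothing is read from that direction. The number of members was 76 to 127 under other background corrections, normalizations and detection filters, and 91 to 200 when single arrays were left out. When single arrays were left out, the calls lower than SHAM ran from 0 to 86 at 5 min, 1 to 24 at 3 h and 75 to 91 at 24 h. Between times they ran from 0 to 20 (higher at 3 h than at 5 min), 0 to 28 (lower at 24 h than at 3 h) and 0 to 8 (lower at 24 h than at 5 min). Without both SHAM replicate 2 and 5 min replicate 3, an alternative chosen after seeing the data, calls were 0 at 5 min, 0 at 3 h, 62 at 24 h, and 0 in each comparison between times. Array weights, whose estimation stopped before convergence, were 570 for SHAM replicate 2, 162 for 5 min replicate 3 and 98.2 for 24 h replicate 2. With these weights 106 were called at 5 min and 78 at 3 h. Between times 89 were called higher at 3 h than at 5 min, 77 lower at 24 h than at 3 h and 26 lower at 24 h than at 5 min. Slide as a fixed term gave 9 at 3 h, 8 at 24 h and 0 in both comparisons of 24 h with earlier times, and as a random block 6 and 0 in those. For 24 h against 3 h, cyclic loess gave 10 and a fit of only those groups 0. For 24 h against 5 min, cyclic loess gave 2, and the 75th percentile scaling, the deposited table, the fit of only those groups and a log2 threshold of 2 gave 3 each. That threshold left 1 at 3 h and 55 at 24 h by construction. With the replicate number as a block, calls were 79, 20 and 99 against SHAM and 15, 24 and 8 between times. Samples of the same number deviated together in all 3 pairs of SHAM and 24 h, where the block changed the count from 91 to 99. They did so weakly in all 3 pairs of 5 min and 24 h (0.171, 0.057 and 0.086), where it changed from 6 to 8. In no other comparison did all pairs deviate together (correlations from -0.515 to 0.418). The causes were not tested.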
